A study of Mus musculus with 16 samples.

Results

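Hair follicle stem cells from mice lacking Col17a1 were compared with the same cells from mice lacking aPKC, on 4 of the 16 1-colour Agilent arrays of a mouse skin series. The compared arrays were all those of young mice with either deletion: Col17a1 cKO tHFSC, Col17a1 cKO aHFSC, aPKC cKO tHFSC and aPKC cKO aHFSC, with 1 array each and with no control array entering a difference. cKO stands for conditional knockout, HFSC for hair follicle stem cells, and the labels do not spell out the prefixes t and a. Each Col17a1 cKO array was set against the aPKC cKO array of the same cell state, so every gene had a tHFSC difference and an aHFSC difference.

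The Col17a1 cKO mice were Col17a1 flox/flox with K15crePR, and the aPKC cKO mice were aPKCλ flox/flox with the same K15crePR, a hormone-inducible Cre recombinase driven by the keratin 15 promoter. All these mice were 12 weeks old. The shared protocol gives topical RU486, the hormone analogue that activates this Cre, at 2.5 mg per mouse for 5 days at 8 weeks of age. The labels give the dose for the Col17a1 cKO and say only that the aPKC cKO was RU486-treated. Hair plucking for 3 days is given for the Col17a1 cKO aHFSC and for the control aHFSC and is not mentioned for the aPKC cKO aHFSC, so a difference in plucking and a difference in genotype cannot be told apart in that state. The sort gate for all 4 samples kept cells without Sca1 that stained strongly for CD34 and for ITGA6. Levels on the 2 arrays of RU486-treated young wild-type (C57BL/6) control mice from the same slide are given as a description. The labels do not say whether arrays came from separate animals or from pooled cells, and no genotype and state had a replicate array.

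COL17A1 is a transmembrane collagen of the hemidesmosome, the junction that anchors basal keratinocytes and follicle stem cells to the basement membrane. aPKCλ, encoded by Prkci, is the atypical protein kinase C that works with PAR3 and PAR6 to set cell polarity and to orient the mitotic spindle. Both proteins bear on whether a follicle stem cell divides parallel to the basement membrane or away from it, and follicle stem cells rest in the bulge until signals that include Wnt, BMP and EGF receptor ligands start or hold back a new hair cycle.

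The series asks how types of stem cell division differ in their outcome, and the direct comparison of the 2 deletions asks where their cells differ from each other. Signal was analysed as log2 of the processed intensity minus the 75th percentile of its array, so that a level of 0 is a probe as bright as that percentile and a difference of 1 is a 2-fold difference. The 4 arrays had between 74.4% and 78.5% of probes well above background, correlated with each other at 0.933 to 0.952 across gene rows, and had no saturated spot. The Col17a1 cKO arrays lay in row 1 of the slide and the aPKC cKO arrays in row 2, so slide row and genotype cannot be told apart.

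The genes that were higher on the Col17a1 cKO array of each state included 4 of the 7 ligand genes of the EGF receptor, Areg, Ereg, Hbegf and Epgn, by 1.94 to 2.46 log2 units on average. They also included Ly6a, which encodes the Sca1 antigen, several stress genes such as Trib3 and Pmaip1, and the kinase gene Prkca. Genes that were higher on the aPKC cKO array of each state included the chemokine receptor gene Cxcr4, the Wnt antagonist genes Wif1 and Dact1, and the chemokine gene Cxcl1. With normexp background correction Areg, Ereg, Trib3, Pmaip1, Wif1 and Dact1 differed by less than 1 log2 unit in 1 state. The difference of Cxcl1 came to -0.036 with 1 array left out. Most epidermal differentiation genes and most immediate early genes were higher in the Col17a1 cKO in tHFSC, and most were lower in aHFSC. None of these differences passed the adjusted test.

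Over 28830 gene rows, limma with cell state as a block called 0 genes at an adjusted p under 0.05, which is 0% of the rows tested, and the smallest adjusted p was 0.844. The unadjusted p was under 0.05 for 1614 rows, 5.6% of those tested, with 790 (2.74%) higher and 824 (2.86%) lower in the Col17a1 cKO. With 1 array for each genotype and state the fit had 1 residual degree of freedom, and its spread is the disagreement of the tHFSC and aHFSC differences, not variation between animals. Standard errors (SE) below come from that fit.

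A rule of size was therefore counted beside the test. A gene was counted as higher when its difference was above 1 in tHFSC and above 1 in aHFSC and its probe was well above background on both arrays of the higher genotype. By this rule 500 rows (1.73%) were higher in the Col17a1 cKO and 601 (2.08%) were lower, 1101 (3.82%) in all. With normexp background correction the count was 212. The split depended on scaling, with 594 higher and 442 lower after quantile normalization and 607 higher and 495 lower when arrays were scaled to their median.

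The tHFSC and the aHFSC differences had a correlation of 0.056 over gene rows, which share arrays and scaling within a state, and the sign was the same for 54.3% of rows. The median absolute difference was 0.39 in tHFSC and 0.43 in aHFSC.

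**Figure D1:**
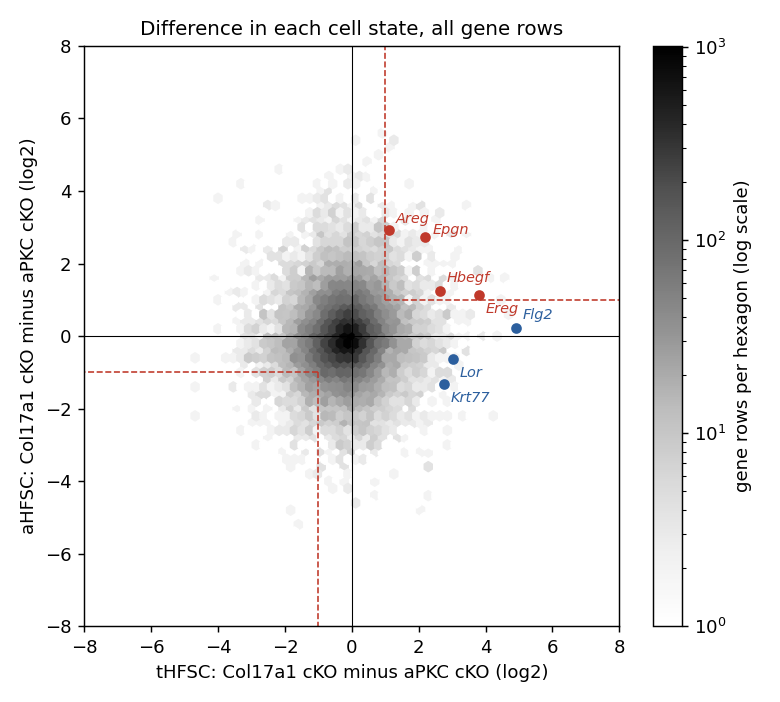
Difference of each of 28830 gene rows between Col17a1 cKO and aPKC cKO in tHFSC (horizontal axis, log2) and in aHFSC (vertical axis, log2), with the number of gene rows per hexagon as grey level on a log scale and dashed lines at 1 and -1 log2 unit. The cloud shows no slope (correlation 0.056), Areg, Epgn, Hbegf and Ereg lie beyond 1 in both states, and Flg2, Lor and Krt77 lie far to the right but near or below 0 in aHFSC.

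The targeted genes were examined first. Prkci had a level of 4.39 in Col17a1 cKO tHFSC, 4.0 in Col17a1 cKO aHFSC, 3.44 in aPKC cKO tHFSC and 3.28 in aPKC cKO aHFSC, against 4.24 and 4.37 on the control tHFSC and aHFSC arrays. Both aPKC cKO arrays were lower than both Col17a1 cKO arrays, and the mean difference was 0.83 ± 0.20 (SE, 2 pairs). Col17a1 had a level of 6.75 and 5.97 on the Col17a1 cKO tHFSC and aHFSC arrays, of 7.0 and 6.46 on the aPKC cKO arrays and of 7.01 and 6.17 on the control arrays, a difference of -0.37 ± 0.12. Within each state the array labelled Col17a1 cKO was the lowest of the 3 for Col17a1, in aHFSC with the aPKC cKO array above the control, but the levels of the genotypes overlapped across states. The labels do not say which exons were removed, and a probe outside the deleted part checks nothing; the Col17a1 probe lies at chr19:47720894-47720953 and the Prkci probe at chr3:30951503-30951562 of mm9. For Prkcz, which encodes aPKCζ, the difference was -0.67 in tHFSC and 1.13 in aHFSC, a mean of 0.23 ± 0.58 that changed sign with normexp correction.

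The genes used in the sort were also examined. Cd34 was at 5.48 and 4.08 in the Col17a1 cKO and at 5.67 and 4.09 in the aPKC cKO (tHFSC then aHFSC), a difference of -0.10 ± 0.16, and Itga6 differed by 0.13 ± 0.18. Ly6a was at 1.02 and -1.27 in the Col17a1 cKO and at -0.51 and -3.50 in the aPKC cKO, against -1.68 and -2.92 on the control arrays. Within each state the Col17a1 cKO array was the higher for Ly6a, by 1.53 in tHFSC and 2.23 in aHFSC, although sorted cells were negative for the Sca1 antigen. The ranges of the genotypes overlapped because both tHFSC arrays were above the aHFSC arrays of their genotype. All 21 bulge genes listed were well above background on all 4 arrays, and the bulge keratin gene Krt15 was between 6.12 and 6.56 on every one of them.

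The EGF receptor family reads several secreted or membrane-shed ligands, and the receptor signals through MAP kinases that induce their own inhibitors. Of 23 genes in the list of EGF receptor ligands, receptors and MAP kinase feedback genes, all 23 were measured, 4 were past the size rule as higher (17.4% of the list, against 1.73% of all rows) and 0 as lower, and 6 had an unadjusted p under 0.05 (26.1%, against 5.6%). The median difference of the list was -0.00, against -0.10 for all gene rows. The members past the rule were all ligand genes. Epgn, Ereg, Areg and Btc lie next to each other on mouse chromosome 5 in the RefSeq table of GRCm38.p6, in that order, between Mthfd2l and Parm1. Upstream sequences of 250 bases were printed for the clustered ligand genes in the table. They show what the bases before the start of genes with like and unlike differences hold. Of the 7 ligand genes 5 had an entry, and those of Tgfa and Egf, outside the cluster, are not shown. Capitals mark matches to 3 motifs searched on both strands. They are TGACGTCA, the letters bound by CREB and ATF factors, TGANTCA, and TATAAA, the TATA box. TGANTCA, with any base at N, includes the letters bound by AP-1 and is wider than them. TGACGTCA and TGANTCA differ in spacing and cannot match the same bases. The windows, from RefSeq on GRCm38.p6, are chr5:91139349-91139598 (plus strand) for Areg, chr5:91027267-91027516 (plus strand) for Epgn and chr5:91402995-91403244 (minus strand) for Btc.
Areg: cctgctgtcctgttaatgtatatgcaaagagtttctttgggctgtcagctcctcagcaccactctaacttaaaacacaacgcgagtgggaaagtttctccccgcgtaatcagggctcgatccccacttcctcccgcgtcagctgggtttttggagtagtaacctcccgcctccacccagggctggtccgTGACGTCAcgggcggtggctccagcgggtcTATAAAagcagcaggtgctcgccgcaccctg
Epgn: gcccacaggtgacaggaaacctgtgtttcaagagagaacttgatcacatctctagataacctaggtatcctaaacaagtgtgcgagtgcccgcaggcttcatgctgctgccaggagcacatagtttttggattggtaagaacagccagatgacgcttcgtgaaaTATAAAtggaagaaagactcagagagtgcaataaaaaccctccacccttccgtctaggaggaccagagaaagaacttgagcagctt
Btc: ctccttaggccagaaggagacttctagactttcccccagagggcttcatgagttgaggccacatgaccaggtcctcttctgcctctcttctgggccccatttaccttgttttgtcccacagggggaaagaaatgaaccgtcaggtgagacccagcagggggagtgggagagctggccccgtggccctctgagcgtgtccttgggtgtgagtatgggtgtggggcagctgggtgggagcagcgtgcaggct

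The Areg window held TGACGTCA 61 bases before the start of the gene and TATAAA 31 bases before it. The Epgn window held TATAAA 86 bases before the start and neither of the other motifs. The Btc window held none of the 3. Over 32851 windows of this length, TGACGTCA was in 508 (1.55%), TGANTCA in 2217 (6.75%) and TATAAA in 4063 (12.4%).

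Areg, which encodes amphiregulin, was at -2.0 in Col17a1 cKO tHFSC, -0.89 in Col17a1 cKO aHFSC, -3.10 in aPKC cKO tHFSC and -3.81 in aPKC cKO aHFSC, and at -3.87 and -5.52 on the control arrays. Both Col17a1 cKO arrays were above both aPKC cKO arrays and both control arrays. The difference was 1.1 in tHFSC and 2.92 in aHFSC, with a mean of 2.01 ± 0.59. The probe lies at chr5:91570090-91570149 of mm9, and the annotation of that build was not used here.

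Ereg, which encodes epiregulin, was at 0.95 and -1.19 in the Col17a1 cKO, at -2.85 and -2.32 in the aPKC cKO and at -2.11 and -1.52 on the control arrays, tHFSC first. The genotypes did not overlap, with the higher level in the Col17a1 cKO tHFSC. The difference was 3.80 in tHFSC and 1.12 in aHFSC (2.46 ± 0.79; probe chr5:91522553-91522612).

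Hbegf, which encodes heparin-binding EGF-like growth factor, was at 2.81 and 1.95 in the Col17a1 cKO, at 0.17 and 0.72 in the aPKC cKO and at -2.40 and 0.72 on the control arrays. Both Col17a1 cKO arrays were the highest of the 6, and the aPKC cKO and control arrays overlapped. The difference was 2.64 in tHFSC and 1.24 in aHFSC (1.94 ± 0.46; probe chr18:36664738-36664797).

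Epgn, which encodes epigen, was at -0.12 and -0.64 in the Col17a1 cKO, at -2.29 and -3.36 in the aPKC cKO and at -3.50 and -1.45 on the control arrays. The genotypes did not overlap, with differences of 2.18 and 2.72 (2.45 ± 0.34; probe chr5:91464119-91464178). All 4 ligand probes were well above background on each of the 4 knockout arrays. With normexp correction Hbegf (2.47 and 1.14) and Epgn (1.45 and 1.53) stayed past the size rule, while Areg (0.47 and 1.43) and Ereg (2.56 and 0.66) had 1 state under 1. In limma's fit over the 8 young HFSC arrays with 1 knockout array left out, all 4 differences stayed above 0, from 0.92 (without Col17a1 cKO aHFSC) to 3.10 (without Col17a1 cKO tHFSC) for Areg and from 1.085 (without aPKC cKO aHFSC) to 3.81 (without aPKC cKO tHFSC) for Epgn. The range was 1.27 to 3.65 for Ereg and 0.68 to 3.19 for Hbegf, lowest without Col17a1 cKO tHFSC and highest without Col17a1 cKO aHFSC for both.

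The other ligand genes were not higher in both states. Tgfa, which encodes transforming growth factor alpha, was at -4.21 and -4.10 in the Col17a1 cKO and at -3.32 and -3.82 in the aPKC cKO, slightly lower in both states. Btc, which encodes betacellulin and lies beside Areg, differed by 1.73 in tHFSC and -3.15 in aHFSC, and Egf by -0.91 and 0.74. The flanking genes of the cluster differed by 0.64 and 0.86 for Mthfd2l and by -0.99 and 0.71 for Parm1. The receptor gene Egfr was at 3.36 and 2.62 in the Col17a1 cKO and at 3.15 and 3.17 in the aPKC cKO (-0.17 ± 0.29). Erbb2, the co-receptor without a ligand of its own, differed by 0.69 ± 0.30 and Erbb3 by -0.35 ± 0.41.

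Feedback genes of the pathway went in different directions. Dusp5, a phosphatase of nuclear ERK, was at -2.27 and -2.41 in the Col17a1 cKO and at -3.18 and -3.75 in the aPKC cKO (1.12 ± 0.37). Dusp6, a phosphatase of cytoplasmic ERK, was at 3.44 and 4.08 against 4.04 and 4.57 (-0.54 ± 0.18). Phlda1 was at 1.94 and 2.81 against 3.61 and 3.29 (-1.08 ± 0.39). Both Phlda1 and Dusp6 were thus lower in the Col17a1 cKO in each state while Dusp5 was higher. Spry1, Spry2, Spred1, Etv4, Etv5, Lrig1 and Errfi1 had mean differences between -0.26 and 0.19. Spred2, an inhibitor of the RAS pathway, differed by -0.65 in tHFSC and 2.23 in aHFSC, and the phosphatase gene Dusp4 by -0.63 and 3.34 with a probe above background on 1 array of each genotype.

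**Figure D2:**
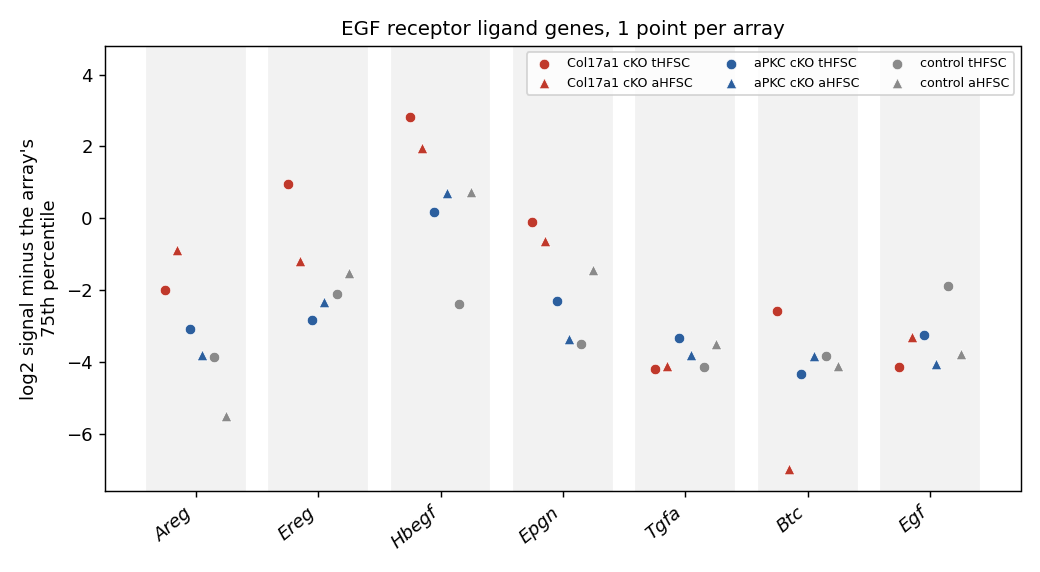
Level of the 7 EGF receptor ligand genes (log2, relative to each array's 75th percentile) on the Col17a1 cKO, aPKC cKO and control arrays, 1 point per array, with circles for tHFSC and triangles for aHFSC. Both Col17a1 cKO points lie above both aPKC cKO points for Areg, Ereg, Hbegf and Epgn, and not for Tgfa, Btc or Egf; levels of different genes are not comparable, since each has its own probe.

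Stress and wound genes were examined next. In the wound and stress keratinocyte list, 22 of 25 genes were measured, 3 were past the size rule as higher (13.6%, against 1.73% of all rows) and 0 as lower. These 3 were Areg, Hbegf and Ereg, which this list shares with the one above. The wound keratin genes Krt6a, Krt6b and Krt16 differed by -0.97, -0.44 and 0.12 in tHFSC and by 1.53, 1.08 and 1.28 in aHFSC. Krt16 was at 1.28 and 4.56 in the Col17a1 cKO and at 1.15 and 3.28 in the aPKC cKO, higher on the aHFSC array of each genotype. The connexin gene Gjb6 was lower in both states (-0.99 and 1.15 against -0.05 and 2.16, -0.98 ± 0.28).

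The list for unfolded protein and integrated stress responses was higher in the Col17a1 cKO for most members on the 4 arrays. All 15 genes were measured, 14 had a positive mean difference (93.3%, against 39.7% of all rows), and the median difference was 0.50 in tHFSC and 0.71 in aHFSC, against -0.13 and -0.08 for all rows. The median of the mean differences was 0.38, and with 1 array left out it ran from 0.029 (without the aPKC cKO aHFSC array) to 0.85 (without the aPKC cKO tHFSC array). Only Trib3 was past the size rule. Trib3, a pseudokinase gene induced by ATF4, was at 1.1 and -0.96 in the Col17a1 cKO and at -2.03 and -2.02 in the aPKC cKO (2.09 ± 0.64), and it left the rule with normexp correction (2.25 and 0.64). Ddit3, which encodes the factor CHOP, was at 0.63 and -0.73 against -0.22 and -1.97 (1.04 ± 0.32). The chaperone gene Hspa5 was at 4.09 and 3.76 against 3.37 and 3.36 (0.56 ± 0.21), and the asparagine synthetase gene Asns was at 1.87 and 1.38 against 1.36 and 0.44 (0.73 ± 0.29). All these genes were higher on the Col17a1 cKO array of each state. On the control aHFSC array Hspa5 was at 3.99, within the Col17a1 cKO range, so the order of the genotypes and the control differed between genes.

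In the p53 and senescence list, all 18 genes were measured, 2 were past the size rule as higher (11.1%, against 1.73% of all rows) and 0 as lower. Pmaip1, which encodes the BH3-only protein NOXA, was at 1.11 and 0.59 in the Col17a1 cKO and at -1.78 and -0.51 in the aPKC cKO (2.0 ± 0.57). The cell cycle inhibitor gene Cdkn2b was at -0.70 and -0.51 against -2.02 and -6.15, and its probe was above background on 1 of the 2 aPKC cKO arrays, so its aHFSC difference of 5.64 is partly measured against background. Cdkn1a, which encodes p21, differed by 1.51 in tHFSC and -2.45 in aHFSC and is named here after its values were seen. Trp53 itself was at 1.39 and 1.83 against 0.90 and 1.09 (0.62 ± 0.28). Neither Pmaip1 nor Cdkn2b stayed past the rule with normexp correction.

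Cytokine genes were measured for 20 of 24 list members, with 1 past the size rule in each direction (5% each, against 1.73% of all rows higher and 2.08% lower). Tnfaip3, which encodes the NF-κB inhibitor A20, was at 2.51 and -0.51 in the Col17a1 cKO and at -0.10 and -1.97 in the aPKC cKO (2.03 ± 0.43; control 0.32 and -0.61). The neutrophil chemokine gene Cxcl1 was at -1.06 and 1.24 against 0.27 and 2.41 (-1.25 ± 0.28; control -0.87 and -2.72). Both stayed past the rule with normexp correction. With 1 array left out the difference of Cxcl1 came to -0.036 without the Col17a1 cKO tHFSC array and -0.14 without the aPKC cKO aHFSC array, and that of Tnfaip3 to between 1.02 and 3.05. Ccl2, a monocyte chemokine gene, was at -1.30 and -1.46 against -0.49 and -0.18 (-1.05 ± 0.33), and the skin T cell chemokine gene Ccl27a was at 6.24 and 4.65 against 6.65 and 5.20 (-0.48 ± 0.13). Cxcl1, Ccl2 and Ccl27a were thus lower, and Tnfaip3 higher, on the Col17a1 cKO array of each state. None of the 18 measured interferon and antigen presentation genes, of 21 listed, was past the rule.

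The epidermal differentiation list went in opposite directions in the 2 states. All 28 genes were measured. In tHFSC 25 of them were higher in the Col17a1 cKO (89.3%, against 39% of all rows) with a median difference of 1.46, and 16 were above 1. In aHFSC 9 were higher (32.1%, against 44.6% of all rows) and 19 lower, with a median of -0.39, and 9 were below -1. None was past 1 in both states in the same direction. The sign of neither median changed under any scaling tried (1.44 to 1.62 in tHFSC and -0.41 to -0.38 in aHFSC). The genes with values below, other than Grhl1, Dsg1a, Serpinb2 and Calml3, were chosen after their values were seen.

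Lor, which encodes loricrin, the main protein of the cornified envelope, was at 6.98 in Col17a1 cKO tHFSC, 5.07 in Col17a1 cKO aHFSC, 3.96 in aPKC cKO tHFSC and 5.69 in aPKC cKO aHFSC, and at 5.26 and 5.19 on the control arrays. The highest and the lowest level were both on tHFSC arrays, with the control between them. Flg2, a filaggrin family gene, was at 3.60 and 0.79 in the Col17a1 cKO and at -1.32 and 0.58 in the aPKC cKO, so that the genotypes differed by 4.92 in tHFSC and by 0.21 in aHFSC. The suprabasal keratin gene Krt10 was at 5.51 and 4.44 against 3.64 and 4.83, and its partner Krt1 was at 4.92 and 4.79 against 3.38 and 5.21. Krt77 was at 4.79 and 2.12 against 2.04 and 3.44. In each of these 3 keratin genes the Col17a1 cKO was higher in tHFSC and lower in aHFSC. Grhl1, which encodes a grainyhead factor of the epidermal barrier, was higher in both states (6.41 and 5.44 against 5.52 and 5.04, 0.65 ± 0.18). Dsg1a (2.58 in tHFSC and 0.37 in aHFSC) and Serpinb2 (2.89 and 0.38) were also higher in both. Calml3 was lower in both (-0.27 and -0.40). The members named by rule, Grhl1 and these genes, thus each kept 1 sign. The upstream window of Lor is printed as that of a differentiation gene that differed by more than 3 in tHFSC, and lies at chr3:92083143-92083392 (minus strand) of GRCm38.p6 in RefSeq.
Lor: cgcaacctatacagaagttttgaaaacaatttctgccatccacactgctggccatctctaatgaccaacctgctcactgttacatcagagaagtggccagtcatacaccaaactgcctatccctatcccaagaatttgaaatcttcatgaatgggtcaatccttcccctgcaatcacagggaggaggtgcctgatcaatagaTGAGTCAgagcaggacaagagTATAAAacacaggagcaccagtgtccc

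It held TGAGTCA, a match to TGANTCA, 48 bases before the start of the gene and TATAAA 27 bases before it. The window of Krt10, also searched, held TATAAA 26 bases before the start of the gene and neither of the other motifs. A match is a run of letters and not a measured binding site.

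Immediate early genes, which are induced soon after a cell is stimulated and need no new protein for it, were also higher in tHFSC and lower in aHFSC. All 20 were measured. In tHFSC 17 were higher in the Col17a1 cKO (85%, against 39% of all rows), with a median of 0.91. In aHFSC 4 were higher (20%, against 44.6% of all rows) and 16 lower, with a median of -0.37. The AP-1 gene Fosl1 was at -0.36 and -1.19 in the Col17a1 cKO and at -4.33 and -1.66 in the aPKC cKO, where its probe was above background on 1 array. The orphan nuclear receptor gene Nr4a1 was at 3.32 and 2.47 against -0.01 and 2.83, low on the aPKC cKO tHFSC array alone among these 4. Fos was at 4.64 and 4.35 against 3.70 and 5.03, with 2.36 and 3.51 on the control arrays. Some members kept 1 sign. Ier3 was lower in both states (0.46 and 0.44 against 1.28 and 1.1), and Egr2 was higher in both, by 0.87 and 0.33, as was Fosl1. Nr4a1 and Fos were named after their values were seen.

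**Figure D3:**
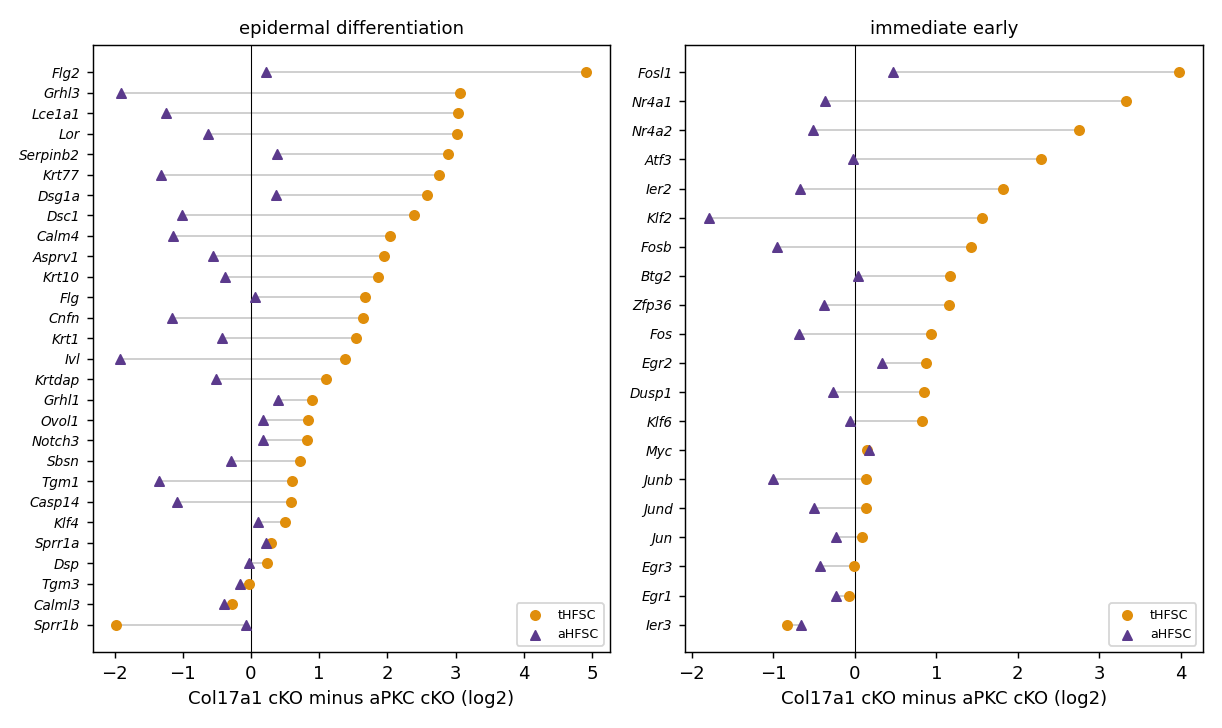
Difference between Col17a1 cKO and aPKC cKO (log2) of the 28 epidermal differentiation genes (left) and the 20 immediate early genes (right), with a circle for tHFSC and a triangle for aHFSC, ordered by the tHFSC difference. Most circles lie right of 0 (25 of 28 and 17 of 20) and most triangles left of it (19 of 28 and 16 of 20).

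Markers of other skin cells were compared as well. For the 10 interfollicular epidermis markers, a list that shares Krt1 and Krt10 with the differentiation list, the summed level (linear signal in units of the 75th percentile of the array) was 101 in Col17a1 cKO tHFSC, 58.4 in Col17a1 cKO aHFSC, 38.2 in aPKC cKO tHFSC and 76.5 in aPKC cKO aHFSC, and 24.7 and 49.4 on the control arrays. Among the 4 knockout arrays the order was that of the summed differentiation list (914, 506, 449 and 628, arrays in the same sequence). The differentiation list summed to 438 and 517 on the control arrays, and control tHFSC was the lowest of the 6 for both lists. The shared genes Krt1 and Krt10 made most of the interfollicular sum on each knockout array. The like order of the sums is thus largely built in and does not show that the other markers followed the differentiation list. The median difference was 1.71 in tHFSC and -0.36 in aHFSC. Of these markers 3 were past the size rule as higher (30%, against 1.73% of all rows) and 0 as lower: Ly6a, the interleukin receptor gene Il20ra (1.51 and -1.37 against -2.56 and -2.79) and the phosphatase subunit gene Ppp2r2c. Ppp2r2c was at 2.59 and -0.69 in the Col17a1 cKO, at 0.04 and -3.80 in the aPKC cKO and at -3.27 and -4.10 on the control arrays (2.84 ± 0.33). In sorted bulk cells, more cells of a type and more RNA per cell cannot be told apart, and the part of these markers in the differentiation values was not tested.

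Immune markers were also uneven. The 9 measured T cell markers of 12 listed summed to 12.0 in Col17a1 cKO tHFSC and to between 3.11 and 4.73 on the other 3 knockout arrays, with 3.87 and 4.41 on the control arrays. The Col17a1 cKO tHFSC array stood apart from the other 5. Skint1, made by keratinocytes and needed for skin γδ T cells to develop, was the 1 member past the size rule as higher (11.1% of the list, against 1.73% of all rows). Without Skint1 the sum was 8.41 in Col17a1 cKO tHFSC and between 2.61 and 3.79 on the other 3 knockout arrays. Skint1 was at 1.85 and -0.08 against 0.25 and -2.07, and Cd3e, a chain of the T cell receptor complex, at 0.45 and 0.51 against -0.32 and -0.42. Among 13 measured Langerhans and myeloid markers of 14, H2-Eb1 (0.09 and -1.02 against -2.64 and -2.51) and Tyrobp (0.08 and -0.73 against -3.53 and -3.01) were past the size rule as higher (15.4%, against 1.73% of all rows). The list sum of 284 to 325 was mostly the signal of Itgam, and without Itgam it was 36.8 and 23.0 in the Col17a1 cKO and 22.9 and 27.1 in the aPKC cKO, highest in Col17a1 cKO tHFSC. The pan-leukocyte gene Ptprc was lower in the Col17a1 cKO (-1.56 and -1.51 against -0.68 and -1.05). The median of the myeloid list in tHFSC was 1.28, and 0.45 with normexp correction. Cd207, which defines Langerhans cells, was at -2.36 and -3.67 against -3.64 and -3.49. The part of these cells in the values above was not tested.

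Several of the other marker lists had lower medians in the Col17a1 cKO, and others were mixed. The 10 sebocyte markers had a median of -0.90 in tHFSC and 0.56 in aHFSC and summed to 48.3 and 125 in the Col17a1 cKO and to 84.4 and 84.8 in the aPKC cKO. The 7 measured fibroblast markers of 11 had a median of -0.72 in tHFSC and 0.10 in aHFSC, with sums of 13.7 and 29.7 against 22.1 and 28.2. The 4 measured erythroid markers of 6 had medians of 0.45 and -1.23. Melanocyte, dermal papilla, endothelial, muscle, adipocyte, Schwann cell and Merkel cell markers had 0 members past the size rule in either direction. All 5 measured adipocyte markers were lower in both states (0% higher, against 39% and 44.6% of all rows, medians -0.63 and -0.60). Of 6 measured muscle markers 5 were lower in each state (16.7% higher, medians -0.41 and -0.43). All 4 measured dermal papilla markers were lower in tHFSC (median -0.98) and 3 were lower in aHFSC (median -0.35).

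Cell cycle genes were compared because the 2 deletions are studied for how stem cells divide. Of 40 genes, 39 were measured and 0 were past the size rule. In aHFSC 31 of 39 were higher in the Col17a1 cKO (79.5%, against 44.6% of all rows), with a median of 0.52. In tHFSC 13 were higher and 26 lower (33.3% higher, against 39% of all rows), with a median of -0.13 that became 0.03 with median scaling. The median shift from tHFSC to aHFSC was 2.20 in the Col17a1 cKO, 0.99 in the aPKC cKO and 1.64 in the control. Mcm7, a subunit of the replicative helicase, was at 3.85 and 5.03 in the Col17a1 cKO and at 3.35 and 3.61 in the aPKC cKO (0.96 ± 0.31; control 3.69 and 4.87). Aurka, which encodes the mitotic kinase Aurora A, was at 0.19 and 2.08 against -0.69 and 0.12 (1.42 ± 0.41; control -1.22 and 2.38), and the ribonucleotide reductase gene Rrm1 at 0.62 and 2.54 against -0.03 and 1.03 (1.09 ± 0.36). In these 3 genes the aPKC cKO aHFSC array was the lowest of the 3 aHFSC arrays, and the Col17a1 cKO array was close to the control array. Mki67, the proliferation marker, was at 1.84 and 4.04 against 2.39 and 3.57, and Cdc20, an activator of the anaphase complex, at -0.33 and 3.03 against 1.77 and 2.93; both are named after their values were seen. The control was close to the Col17a1 cKO for both of them in aHFSC, and for Cdc20 so was the aPKC cKO (2.93 against 3.03). Plucking is recorded for the Col17a1 cKO and control aHFSC arrays and not for the aPKC cKO. Plucking and genotype cannot be told apart there, and the part of plucking was not tested.

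Sterol and fatty acid synthesis genes were compared as a growth program. All 20 were measured, the median difference was 0.17 in tHFSC and 0.86 in aHFSC, 15 were higher in aHFSC (75%, against 44.6% of all rows), and 0 were past the size rule. With normexp correction the aHFSC median was 0.46, and with 1 array left out the median of the mean differences (0.25) ran from -0.10 (without the aPKC cKO aHFSC array) to 0.85 (without the aPKC cKO tHFSC array). Idi1, which encodes isopentenyl diphosphate isomerase, was at 6.28 and 6.04 against 5.74 and 5.45 (0.57 ± 0.12), and the squalene epoxidase gene Sqle at 4.32 and 4.09 against 3.93 and 2.97 (0.75 ± 0.27). Fdft1, which encodes squalene synthase, was the reverse (2.77 and 1.74 against 3.49 and 2.90, -0.94 ± 0.25). On the control aHFSC array Idi1 was at 6.20 and Sqle at 4.38, both above the aPKC cKO aHFSC array. No plucking is recorded for the aPKC cKO aHFSC array, and the part of plucking in these values was not tested.

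Wnt pathway genes included inhibitors that were lower in the Col17a1 cKO. Of 28 genes 27 were measured, 2 were past the size rule as lower (7.41%, against 2.08% of all rows) and 0 as higher. Wif1, which encodes a secreted Wnt inhibitor of the bulge, was at -1.25 and -2.20 in the Col17a1 cKO, at 0.55 and -0.73 in the aPKC cKO and at 0.25 and -0.97 on the control arrays (-1.63 ± 0.32). Both Col17a1 cKO arrays were the lowest of the 6 for Wif1. Dact1, an intracellular antagonist, was at -1.26 and -3.99 against 1.1 and -2.94 (-1.70 ± 0.47; control -1.46 and -5.58). Both genes had 1 state under 1 in size with normexp correction. The ligand gene Wnt4 was at 1.66 and 1.14 against 1.07 and -0.15 (0.94 ± 0.33) and Wnt10b at -1.11 and -1.64 against -0.40 and -0.70 (-0.82 ± 0.31), while the target gene Axin2 differed by 0.40 ± 0.32.

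In the Hedgehog list 14 of 16 genes were measured, with 1 past the size rule as lower (7.14%, against 2.08% of all rows). This was Disp1, which encodes the protein that releases the ligand (-4.45 and -5.25 against -1.90 and -3.98), with a probe above background on 1 of the 2 Col17a1 cKO arrays. The pathway targets Gli1 and Ptch1 had mean differences of 0.00 ± 0.48 and 0.13 ± 0.37. In the Notch list 16 of 18 genes were measured and 0 were past the rule, and the ligand genes went apart: Jag2 was at 1.39 and 1.14 against 2.34 and 2.28 (-1.05 ± 0.26), and Dll1 at 0.15 and -1.24 against -0.68 and -2.37 (0.98 ± 0.31). For the BMP and TGF-beta list 25 of 26 genes were measured and 0 were past the rule. The ligand gene Bmp6 was at -1.03 and -0.01 against -0.22 and 1.48 (-1.15 ± 0.34), and the target genes Id1, Id2 and Id3 had mean differences of 0.00, -0.06 and -0.49.

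Genes that mark the stem cell compartment were mostly lower in the Col17a1 cKO in tHFSC and near an even split in aHFSC. Among the 21 bulge genes Wif1 was past the size rule as lower (4.76%, against 2.08% of all rows), and Sox9, Lhx2, Tcf7l2, Nfatc1, Krt15 and Tbx1 had mean differences between -0.17 and 0.03. The list median was -0.24 in tHFSC, with 4 of 21 genes higher in the Col17a1 cKO (19%, against 39% of all rows), and 0.03 in aHFSC, a sign that turned with quantile normalization. The angiopoietin-like gene Angptl7 was at 3.66 and 1.88 against 3.02 and 0.79 (0.87 ± 0.27), with 4.39 and -1.19 on the control arrays. Ltbp2 (-0.53 in tHFSC and -0.63 in aHFSC) and Nfib (-0.24 and -0.22) were lower in the Col17a1 cKO in both states. In the upper follicle and sebaceous gland list of 15 genes, 14 were lower in Col17a1 cKO tHFSC (6.67% higher, against 39% of all rows, median -0.59). In aHFSC 8 were lower (46.7% higher, against 44.6% of all rows, median -0.05). Cst6, which encodes cystatin E/M, was at 3.82 and 2.99 against 4.70 and 3.81 (-0.85 ± 0.18), Defb6, a defensin gene, at 3.86 and 2.82 against 4.59 and 3.81 (-0.85 ± 0.20), and the transcription factor gene Gata6 at -0.43 and -0.98 against 1.35 and -0.21 (-1.27 ± 0.40). In these 3 genes the aPKC cKO tHFSC array was the highest of the 3 tHFSC arrays, control included. None of the 16 measured hair germ and hair lineage genes, of 18 listed, was past the rule.

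The protein systems of the deleted genes showed small differences beyond the targets. In the hemidesmosome and basement membrane list, 21 of 22 genes were measured, 0 were past the size rule, and the median difference was -0.02. Krt5 and Krt14, the basal keratin genes, differed by 0.01 ± 0.07 and 0.19 ± 0.07. Itgb4, which encodes the integrin subunit that binds COL17A1, was at 3.77 and 3.52 against 4.54 and 3.81 (-0.53 ± 0.22), and Itga3 at -0.17 and -0.15 against -1.20 and -0.69 (0.79 ± 0.33). Of 24 listed genes of polarity and spindle orientation, 21 were measured, 0 were past the rule, and the median was -0.06. Patj was lower in the Col17a1 cKO (-0.73 ± 0.29) and Scrib higher (0.63 ± 0.29), while Cdc42, Numb, Numa1 and Gpsm2 had mean differences between -0.14 and 0.11. The oxidative phosphorylation, ribosomal protein, glycolysis and hypoxia, and matrix lists had medians of 0.03, -0.05, 0.09 and -0.32 with 0 members past the rule. Vegfa was at -0.10 and 0.72 against -0.71 and -1.37 (1.35 ± 0.50). Of 18 measured matrix genes 8 had a positive mean difference (44.4%, against 39.7% of all rows) and 10 a negative one. The collagen gene Col16a1 was higher, at 1.30 and 1.91 against 0.41 and 0.71 (1.05 ± 0.28). Col1a2 (-0.71 in tHFSC and -1.40 in aHFSC) and Sparc (-0.58 and -0.48) were lower in both states.

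**Figure D4:**
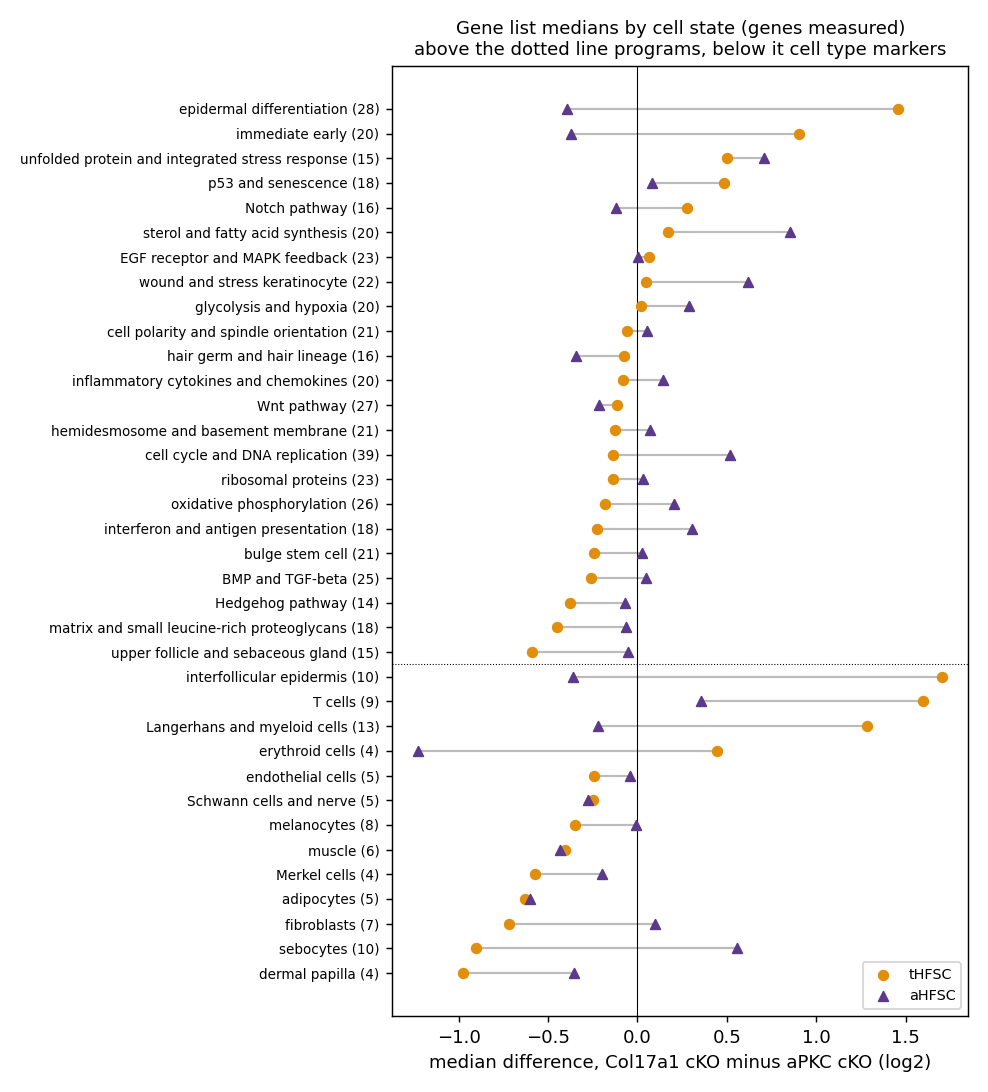
Median difference between Col17a1 cKO and aPKC cKO (log2) of each gene list in tHFSC (circle) and in aHFSC (triangle), with the number of measured genes in parentheses, programs above the dotted line and cell type markers below it. Epidermal differentiation (1.46 and -0.39), immediate early (0.91 and -0.37) and interfollicular epidermis (1.71 and -0.36) lie right of 0 in tHFSC and left of it in aHFSC, while the unfolded protein list (0.50 and 0.71) lies right of 0 in both.

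Most of the genes whose smaller difference of the 2 states was largest were not above background in the lower genotype. For such genes only a bound on the fold can be given: the higher genotype's mean level was set against a floor, which on each array of the lower genotype was the probe's own signal or the dimmest signal of any probe well above background, whichever was brighter. Some probes not above background were brighter than that dimmest signal, so this floor is a lenient one. The words at least below mean against this floor and are not a minimum under other processing. With normexp correction some differences fell below the bounds. Rgs1 then differed by 2.295 log2 units in tHFSC and 1.028 in aHFSC, and A530013C23Rik by -3.335 and -0.689. Among the 12 named as higher in the Col17a1 cKO, 10 were above background on neither aPKC cKO array. Rgs1, a regulator of G protein signalling found in lymphocytes, had a mean level of -1.10 in the Col17a1 cKO and -5.89 in the aPKC cKO and was at least 20.3-fold higher. Tac4, which encodes the tachykinin precursor hemokinin, had means of -1.54 and -6.74 (at least 15.98-fold). Ctla2b (-1.44 and -5.72) and the lysosomal protease gene Ctss (-1.55 and -5.76) were each at least 14.9-fold higher. These genes were high on both Col17a1 cKO arrays and at background on both aPKC cKO arrays. Sycp1, Eif5b, Flicr, C130073F10Rik, Hdhd5 and Zfp324 had bounds from 4.06-fold to 10.2-fold.

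The other genes of that group were measured on all 4 arrays. Slc16a9, a monocarboxylate transporter gene, was at -0.21 and -0.21 in the Col17a1 cKO, at -3.64 and -4.20 in the aPKC cKO and at -1.04 and -0.60 on the control arrays (3.71 ± 0.35). Aif1l, which encodes an actin-bundling protein, was at -0.34 and -0.52 against -3.98 and -3.53, with -4.16 and -3.04 on the control arrays (3.33 ± 0.36). The control was thus near the Col17a1 cKO for Slc16a9 and near the aPKC cKO for Aif1l. With normexp correction 5 of the 12 stayed past the size rule, these both among them.

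Among the 12 named as lower in the Col17a1 cKO, 9 were at background on both Col17a1 cKO arrays. A530013C23Rik had a mean level of -6.45 in the Col17a1 cKO and -0.84 in the aPKC cKO (at least 20.4-fold lower), Ubxn10 -6.20 and -1.58 (at least 12.3-fold) and Cmya5 -6.61 and -1.69 (at least 11.4-fold). Mup20, Kdelr3, Rnf182, Snap91, B230216N24Rik and 4930579P08Rik had bounds from 3.12-fold to 7.96-fold. Ercc6, a DNA repair gene, was at -6.86 and -4.46 against -2.87 and 0.78 with 1 Col17a1 cKO array above background, and control levels of -0.79 and -4.77. Gm9831 (-3.57 and -2.46 against -0.28 and 1.28) and Gm10638 (-3.60 and -3.84 against 0.25 and -0.87) were above background on all 4 arrays, but with normexp correction the tHFSC difference of Gm10638 turned to 2.385. With that correction Gm9831 alone of these 12 stayed past the size rule (-1.77 and -2.6).

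Because so many of these probes were dim, brighter genes were listed as well, by a rule chosen after the values were seen: past the size rule and above the 75th percentile on both arrays of the higher genotype. This left 87 rows higher and 84 lower, 171 in all, and the 12 with the largest smaller-of-2-states difference among officially named genes in each direction all stayed past the size rule under normexp correction, quantile normalization, median scaling and the deposited values. Abhd5, a cofactor of triglyceride lipase, was at 1.91 and 0.64 in the Col17a1 cKO, at -0.61 and -2.60 in the aPKC cKO and at 0.14 and -0.26 on the control arrays (2.88 ± 0.35). Prkca, which encodes conventional protein kinase C alpha, was at 1.76 and 1.83 against -0.30 and -1.04, with 1.81 and 1.15 on the control arrays (2.46 ± 0.36). Nol9, a ribosomal RNA processing kinase gene, was at 2.07 and 2.17 against 0.10 and 0.26 (1.94 ± 0.27; control 1.17 and 1.42). The aPKC cKO arrays were the lowest of the 6 for all 3 of these genes.

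Gm15772 had the smallest standard error of this group, at 5.86 and 5.76 in the Col17a1 cKO, 4.04 and 3.94 in the aPKC cKO and 5.65 and 5.89 on the control arrays (1.82 ± 0.15). Its control levels were close to those of the Col17a1 cKO. Cpeb2, Arrb2, Parp2, Bdh1, Zdhhc7, Tmem94, Tigar and Azin1 were the others, with mean differences from 1.68 to 2.95. Tmem94 (2.95) came to 0.21 and Bdh1 (2.20) to 0.98 without the aPKC cKO aHFSC array, while Prkca stayed between 2.19 and 2.74 and Gm15772 between 1.79 and 1.84 with any of the 4 knockout arrays left out. For Arrb2, which encodes beta-arrestin 2, the control tHFSC array (-1.79) was nearer the aPKC cKO (-1.30) than the Col17a1 cKO (0.70). In aHFSC the control (-1.0) lay between the aPKC cKO (-2.20) and the Col17a1 cKO (0.12).

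Cxcr4, which encodes the receptor for the chemokine CXCL12, led the bright genes in the other direction. It was at 0.15 and 1.62 in the Col17a1 cKO, at 2.71 and 3.96 in the aPKC cKO and at 1.35 and 1.14 on the control arrays (-2.45 ± 0.25). Both aPKC cKO arrays were above the other 4, and the Col17a1 cKO and control overlapped. Vgll4, a cofactor of TEAD factors that opposes YAP, was at 0.05 and 1.60 against 1.87 and 3.37 (-1.79 ± 0.25; control 0.42 and 1.85), and Lbh, a Wnt-responsive transcription cofactor gene, at -1.40 and 0.26 against 1.61 and 2.15 (-2.45 ± 0.41; control -0.93 and 1.55). Ppp2r1b, a scaffold subunit of protein phosphatase 2A, was at -1.09 and -1.11 against 0.72 and 0.87 (-1.89 ± 0.30; control 1.22 and -1.11). The remaining genes were Slc27a6, Vps52, Klhl36, Micu3, Reep6, Cyba and Sap25, with mean differences from -3.51 to -2.0, and Tex19.1, which was above background on 1 of 2 Col17a1 cKO arrays and came to -0.33 without the array where it was dim, Col17a1 cKO aHFSC.

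**Figure D5:**
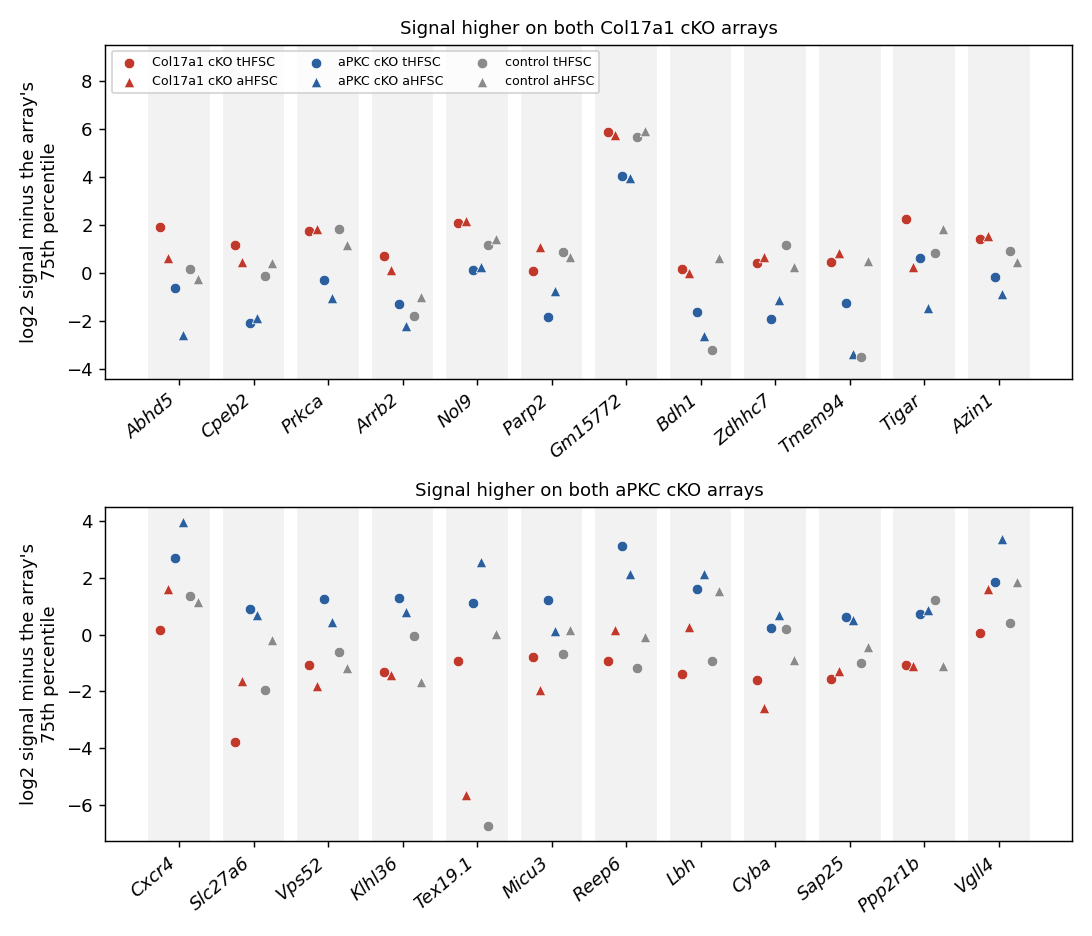
Level (log2, relative to each array's 75th percentile) of the 12 bright genes higher in the Col17a1 cKO (top) and the 12 higher in the aPKC cKO (bottom), 1 point per array, with circles for tHFSC, triangles for aHFSC and grey points for the control arrays. The knockout arrays of each state are more than 1 log2 unit apart by the rule that chose these genes. For Cxcr4 both aPKC cKO points lie above the control points, and for Gm15772 both lie below them.

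The control arrays did not side with either genotype overall. Of the 500 rows higher in the Col17a1 cKO, the mean control level was nearer the aPKC cKO in 243 and nearer the Col17a1 cKO in 257, and it lay outside the range of the 2 genotype means in 171. Of 600 lower rows with control values, 298 were nearer the aPKC cKO and 302 nearer the Col17a1 cKO, and 147 lay outside.

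The dependence of the difference on cell state was tested in limma over the 12 HFSC arrays, whose other 4 conditions (young control, young hCOL17A1, aged wild-type and aged hCOL17A1) supplied the spread of the state shift, with 3 residual degrees of freedom. At an adjusted p under 0.05 there were 0 genes (0%), the smallest adjusted p was 0.810, and 903 rows (3.13%) had an unadjusted p under 0.05. With normexp correction 1 row was called. The genes with the smallest unadjusted p were therefore named as not passing. Samd14 was at -3.42 and 1.06 in the Col17a1 cKO and at -0.06 and -3.19 in the aPKC cKO, so that its difference went from -3.36 in tHFSC to 4.25 in aHFSC. Haghl went from -2.93 to 2.39 and Slc39a9, a zinc transporter gene, from -2.34 to 4.41. Gm10782 went from 4.47 to -5.51, Cyb5rl from 3.11 to -3.09 and the potassium channel regulator gene Kcnrg from 1.57 to -3.16. Samd14, Haghl and Kcnrg were well above background on all 4 arrays, Cyb5rl and Slc39a9 on 1 of the 2 aPKC cKO arrays, and Gm10782 on 1 of the 2 arrays of each genotype, so these last 3 are set partly against background. With normexp correction Gm10782 went from 1.95 to -2.53, and Cyb5rl was higher in the Col17a1 cKO in both states (1.61 and 0.39). Among the list members described above, 3 of 28 epidermal differentiation genes and 2 of 20 immediate early genes had an unadjusted p under 0.05 for state dependence, against 3.13% of all rows.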

How the data were processed

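RNA of sorted cells was amplified, labelled with Cy3 and hybridised to 1-colour Agilent arrays, per the labels' protocols, and signals were extracted with Feature Extraction 11.5.1.1, per the file headers. The deposited scanner files give an intensity per probe, background-subtracted and detrended within the array by that software. The deposited value table is on a log2 scale and matched log2 of this intensity minus the array's 75th percentile, the values used here. For 1 control array, 9264 of 55681 probes were taken from the deposited value table.

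Probes were named through RefSeq by accession (28361), symbol (3186) or synonym (270), and 23864 kept the name in the files. Each gene row used its brightest probe by the mean of the 4 arrays, kept where it was well above background on at least 2 of them. limma 3.58.1 in R 4.3.3 fitted genotype with cell state as a block and adjusted p-values by Benjamini-Hochberg over 28830 rows, at a threshold of 0.05; the fit was tested on simulated data with 200 changed genes. The same-state arrays are paired by their cell state and not by a replicate number. State dependence was fitted over the 12 HFSC arrays. The precision is limited by the number of arrays. Whether arrays came from separate animals is not given in the sources used here, so the spread may be partly technical.

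The members and the gene lists were chosen with earlier results of these data known. Genes were named by rule: those past the threshold; where fewer than 3 passed in a direction, the 12 officially named genes with the largest smaller-of-2-states difference, well above background on both arrays of the higher genotype; up to 4 members of each program list, those past the size rule first and then by unadjusted p; the targeted and sorted-for genes; and 3 genes in each direction for state dependence. Other list members were named for their role or after their values were seen. All 36 lists are reported or drawn with their medians. Alternatives changed the background correction (normexp, offset 50), scaling, filter, probe summary, variance model, pairing, arrays in the fit and source of values, and left out arrays. Marker sums without Itgam or Skint1 were added after seeing the data.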

Additional observations from a re-analysis of the deposited data

Results flagged for a closer look

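The genotype difference of 5 gene lists had medians of opposite sign in the 2 cell states, each more than 0.3 log2 units from 0. The aHFSC median minus the tHFSC median (log2, Col17a1 cKO minus aPKC cKO) was -1.85 for epidermal differentiation, -1.28 for immediate early genes, -2.06 for interfollicular epidermis markers, 1.46 for sebocyte markers and -1.67 for erythroid markers, of which 4 were measured. With 1 array for each genotype and state, the difference between states was not tested for these lists. The interfollicular epidermis markers share Krt1 and Krt10 with the differentiation list.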

How the results depend on the processing

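In limma the count of genes called between the genotypes was 0 in all 16 alternatives, including the 4 that left out a knockout array (0 to 0), which used the fit over the 8 young HFSC arrays with a lone array assumed to vary like the others. The count past the size rule was 212 with normexp correction (121 higher, 91 lower, 203 shared with the 1101) and 600 when all 4 arrays had to be well above background. In settings chosen after seeing the data it was 3758 at 0.5 log2 units, 164 at 2 log2 units, and 171 for levels above the 75th percentile. Quantile normalization gave 594 higher and 442 lower and median scaling 607 and 495, against 500 and 601, and median scaling moved the tHFSC median of all genes from -0.13 to 0.03. State dependence gave 0 calls in 16 of 17 alternatives, leaving out an array included (0 to 0), and 1 with normexp correction, at limma's adjusted p of 0.0309, from a row with 1 high array, Col17a1 cKO aHFSC (5.07, against -2.30 to -1.91 on the other 11). EGF ligand genes past the size rule numbered 2 with normexp correction. Prkcz reversed to -0.027 with normexp correction and ran from -0.45 to 0.91 over leave-outs (-0.28 without aPKC cKO aHFSC), and Cd34 ran from -0.29 to 0.089, the last without Col17a1 cKO tHFSC. The cause was not tested. No pairing by replicate number was possible, because each group has 1 array and that number is only a name. Pairing by cell state is the design used. Leaving it out changed no call, which cannot show whether the pairing matters, since 0 genes were called with it. Probes near background limit the named dim genes to bounds, and some differences fell below these with normexp correction.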
